A study of Homo sapiens with 6 samples.

Results

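The metallothionein genes of T-24 cells, the gene of their transcription factor MTF1 and the gene of the zinc exporter SLC30A1 did not move as one group under CCT068127. MT2A rose 7.38-fold and MT1X 3.92-fold, MT1E rose 1.75-fold, SLC30A1 fell, and MT1M and MTF1 did not pass the test. MT1F was called lower, but on 5, 2 and 7 counts in the treated libraries. It passed the filter on low counts only through the DMSO libraries, so its call only describes it. The set holds 9 genes out of 38557 gene symbols in the tables: MT2A, MT1A, MT1E, MT1F, MT1G, MT1M, MT1X, MTF1 and SLC30A1. All 9 were found by symbol. They were chosen by the measured rise of MT2A in the treated cells, so the same comparison only describes them and no p-value is given for a member.

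T-24 is an established line of adherent epithelial cells, derived from a bladder cancer. The treated group was kept for 48 h with CCT068127 at 1 µM (3 libraries, labelled as treated in the genotype field). The control group was kept for 48 h with DMSO, the vehicle (3 libraries, labelled as wild type). CCT068127 inhibits CDK2 and CDK9, kinases of the cell cycle and of transcription, and poly(A) RNA was sequenced. The series text calls the 3 samples of a group biologically independent, and a single line, dose and time were used.

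Metallothioneins are very small proteins rich in cysteine that bind zinc, copper and cadmium and buffer the free zinc of the cell. When zinc or cadmium rises, MTF1 binds zinc through its zinc fingers, moves to metal response elements in the promoters of metallothionein genes and of SLC30A1, and activates them. SLC30A1, also called ZnT1, carries zinc out through the plasma membrane. MT2A is also a known target of glucocorticoids and of oxidative stress, and it is commonly the main metallothionein of human epithelial cells.

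The metallothionein genes lie side by side. In GENCODE 29 (GRCh38), the 7 members among them lie within 76.0 kb of chromosome 16, from MT2A (56608199 to 56609497) through MT1E (56625475 to 56627112), MT1M (56632233 to 56633986), MT1A (56638666 to 56640087), MT1F (56657694 to 56660698) and MT1G (56666731 to 56668065, minus strand) to MT1X (56682424 to 56684196). MTF1 (37809567 to 37859620) and SLC30A1 (211571568 to 211578742) are on the minus strand of chromosome 1. All 9 are annotated as protein coding.

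The promoters of the members that moved, read from RefSeq (GRCh38.p14), show how the recognition core of MTF1 is placed in them. The core was searched as TGCACNC or TGCGCNC on both strands in windows from 250 bases before to 50 bases after the RefSeq gene start, and no matches overlapped. Of the 9 members, 4 had a window in the RefSeq table used here: MT2A, MT1X, SLC30A1 and MTF1. The 250 bases before the start are printed 5′ to 3′ on the strand of the gene, with matches in capitals (a match on the opposite strand reads as the reverse complement of the core). The RefSeq starts of MT2A and MT1X lie inside the GENCODE spans given above and that of SLC30A1 lies upstream of its span, so the windows depend on which start is used.
MT2A, chr16:56608334-56608583, plus strand: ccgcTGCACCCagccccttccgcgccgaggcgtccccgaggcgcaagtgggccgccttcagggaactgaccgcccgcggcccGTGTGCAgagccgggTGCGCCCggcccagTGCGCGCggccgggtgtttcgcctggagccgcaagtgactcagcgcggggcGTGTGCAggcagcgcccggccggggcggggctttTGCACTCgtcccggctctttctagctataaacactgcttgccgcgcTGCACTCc
MT1X, chr16:56682220-56682469, plus strand: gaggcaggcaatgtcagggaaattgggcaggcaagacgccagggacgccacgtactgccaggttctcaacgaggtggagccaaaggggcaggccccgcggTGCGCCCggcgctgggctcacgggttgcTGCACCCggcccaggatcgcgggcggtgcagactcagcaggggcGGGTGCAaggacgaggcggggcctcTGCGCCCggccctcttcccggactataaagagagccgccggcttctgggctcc
SLC30A1, chr1:211579162-211579411, minus strand: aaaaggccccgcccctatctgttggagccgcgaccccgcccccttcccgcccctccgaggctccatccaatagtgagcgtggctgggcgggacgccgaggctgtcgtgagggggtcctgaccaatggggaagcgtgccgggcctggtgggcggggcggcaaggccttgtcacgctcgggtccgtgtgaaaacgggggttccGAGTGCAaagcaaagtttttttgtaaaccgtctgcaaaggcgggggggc

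The MT2A window held 8 matches, 5 on the strand of the gene and 3 on the other, with 7 of them in the printed stretch and 1 beginning 31 bases into the transcript. The MT1X window held 4, and the SLC30A1 window held 2, both on the opposite strand, at position -49 (printed) and position 25 after the start. The MTF1 window held 0. Among the 15161 promoter windows of the genes tested below, 37.1% held at least 1 match and 11.5% at least 2. Among all 35116 promoter windows of the table, 29.6% held at least 1 match, 8.6% at least 2, 0.601% at least 4 and 0.0199% (7 windows) at least 8. MT1H, which is not among the 9 genes, also held 8 and had at most 2 counts in a CCT068127 library. MT4, with 3 matches, was listed at 0 in all 6 libraries. These matches describe letters in a window and were not measured as binding.

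**Figure D1:**
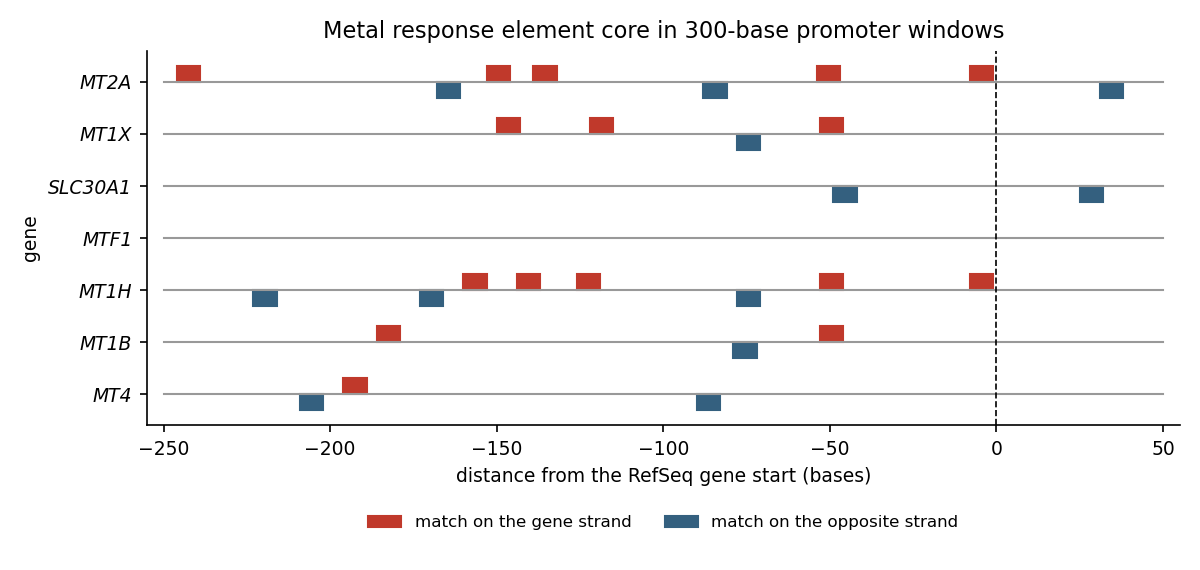
Matches to the metal response element core in the 300-base promoter windows of 4 members and 3 other metallothionein genes, by distance in bases from the RefSeq gene start (dashed line). Boxes above a line are on the strand of the gene and boxes below it on the opposite strand; MT2A and MT1H have 8 each, MT1X has 4, MT1B and MT4 have 3 each, SLC30A1 has 2 and MTF1 has none.

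The tables hold estimated counts and TPM (an abundance scaled per transcript length, so levels of different genes can be compared). Totals were 1966742 to 5557546 counts in the CCT068127 libraries and 5955296 to 411097626 in the DMSO libraries, where replicates 1 and 2 were far deeper than all the others, so depth and treatment are partly confounded. DMSO replicate 3 had a depth close to the treated libraries, and each member's fold change is therefore also given against it alone. CPM below are counts relative to library totals scaled by TMM, and log2 fold changes are CCT068127 over DMSO from edgeR with their standard error (SE). The words rose and fell mark genes at an adjusted p under 0.05 over all 13597 genes that passed the filter on low counts. Epithelial markers were present, with 5 of 6 (KRT8, KRT18, KRT19, KRT7 and EPCAM) at 1 TPM or more in every library and sums of 5281 to 6725 TPM under CCT068127 and 3677 to 4874 TPM under DMSO. Mesenchymal markers were present as well, with 4 of 4 (VIM, CDH2, FN1 and ZEB1) at 1 TPM or more in every library and sums of 1500 to 1712 TPM under CCT068127 and 1894 to 2118 TPM under DMSO. Of 8 urothelial markers GATA3 alone reached 1 TPM in every library, and the summed urothelial level was 14.4 to 19.1 TPM under CCT068127 against 79.4 to 102 TPM under DMSO. Of 4 leukocyte markers CD68 alone reached 1 TPM in every library, and their sum was 44.8 to 47.3 TPM under CCT068127 against 5.48 to 9.53 TPM under DMSO. Their part in the results was not tested.

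Of the 9 members, 7 passed the filter on low counts, and MT1A and MT1G did not. Of those 7, 3 rose (all tested genes: 31.9%), 2 fell (all tested genes: 32.8%) and 2 did not pass, and the groups did not overlap in CPM for 5. Over all tested genes 64.7% were called in either direction and 69.4% had groups that did not overlap. With library totals in place of TMM, 3006 genes were called higher and 6567 lower, beside 4333 and 4460 with TMM. Because the comparison chose the members, nothing is read from these counts. The median log2 fold change of the 7 was 0.11, beside -0.05 over all tested genes.

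MT2A was the most abundant member in every library. It stood at 9709.67, 6928.00 and 9605.56 TPM in CCT068127 replicates 1 to 3, against 2106.52, 1419.35 and 1472.82 TPM in DMSO replicates 1 to 3. The groups were far apart, with the lowest treated library above the highest DMSO library. Ranked by TPM among all genes, MT2A was 3rd, 12th and 4th under CCT068127 and 79th, 108th and 105th under DMSO. In CPM it averaged 1800 ± 345 under CCT068127 and 244 ± 54.6 under DMSO (SD, n = 3 each), a log2 fold change of 2.88 ± 0.19, and 3.04 against DMSO replicate 3 alone. Of all tested genes, 4.35% (591) had a log2 fold change at least as large. RNA came from whole wells, so a change in every cell, in some of the cells or in the RNA per cell cannot be told apart.

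MT1X moved in the same direction at a far lower level. It stood at 114.72, 69.93 and 97.34 TPM in the CCT068127 libraries against 34.80, 37.82 and 28.29 TPM in the DMSO libraries, with no overlap. In CPM it averaged 19.5 ± 5.0 under CCT068127 and 4.94 ± 0.83 under DMSO, a log2 fold change of 1.97 ± 0.20, and 2.28 against DMSO replicate 3 alone. These values rest on 119, 25 and 84 counts in the treated libraries and 27 in DMSO replicate 3. A non-coding gene, AC026461.1, shares exon sequence with MT1X on the same strand in GENCODE, so reads from the pair cannot be told apart there.

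MT1E was the next most abundant member after MT2A and moved less. It stood at 866.01, 564.89 and 836.77 TPM under CCT068127 against 783.18, 529.76 and 543.82 TPM under DMSO, and the groups overlapped on this scale. In TMM-scaled CPM they did not overlap, with 184, 117 and 171 under CCT068127 against 114, 78.9 and 78.5 under DMSO. The log2 fold change was 0.81 ± 0.19, and 0.98 against DMSO replicate 3 alone. On log2(TPM + 1) values it was 0.29 and MT1E was not called. The median of all genes was -0.05 with TMM, -0.36 with library totals and -0.46 on log2(TPM + 1) values. Relative to that median MT1E stood at 0.86, 0.85 and 0.75 on the 3 scales, MT2A at 2.93, 2.93 and 2.86, and MT1X at 2.02, 2.02 and 1.90.

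MT1F moved the other way from a low level. It stood at 4.49, 5.21 and 6.91 TPM in the CCT068127 libraries and at 16.04, 14.13 and 14.76 TPM in the DMSO libraries. All treated libraries were below all DMSO libraries. MT1F passed the filter on low counts only through the DMSO libraries, where it was higher, so its call only describes it. The treated values rest on 5, 2 and 7 counts (exact 95% counting intervals 1.62 to 11.7, 0.242 to 7.22 and 2.81 to 14.4), beside 16 in DMSO replicate 3 (9.14 to 26.0). The MT1F log2 fold change was -0.93 ± 0.33, or -0.88 relative to the median of all genes, and -0.91 against DMSO replicate 3 alone. The settings that ended the call included leaving out CCT068127 replicate 1 (-0.74), DMSO replicate 1 (-0.90) or DMSO replicate 2 (-1.0) and the use of DESeq2 (-0.89).

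MT1M, with a similar level, gave no call. It stood at 7.82, 5.68 and 11.77 TPM under CCT068127 and at 11.39, 11.25 and 18.68 TPM under DMSO, and the groups overlapped. The treated values rest on 8, 2 and 10 counts. Its log2 fold change was 0.04 ± 0.36, but -0.59 against DMSO replicate 3 alone and -0.66 on log2(TPM + 1) values, so no direction is given. MT1A and MT1G were listed at 0 in all 3 CCT068127 libraries and in DMSO replicate 3. They had 6 and 3 counts (MT1A) and 11 and 5 counts (MT1G) in the deep DMSO replicates 1 and 2. A count of 0 allowed up to 0.611, 1.71 and 0.710 CPM (3 counts) in the CCT068127 libraries, above the 0.0145 CPM of MT1A and 0.0266 CPM of MT1G in DMSO replicate 1, so a fall in either gene, or a rise that stayed under these limits, was not detectable at this depth.

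**Figure D2:**
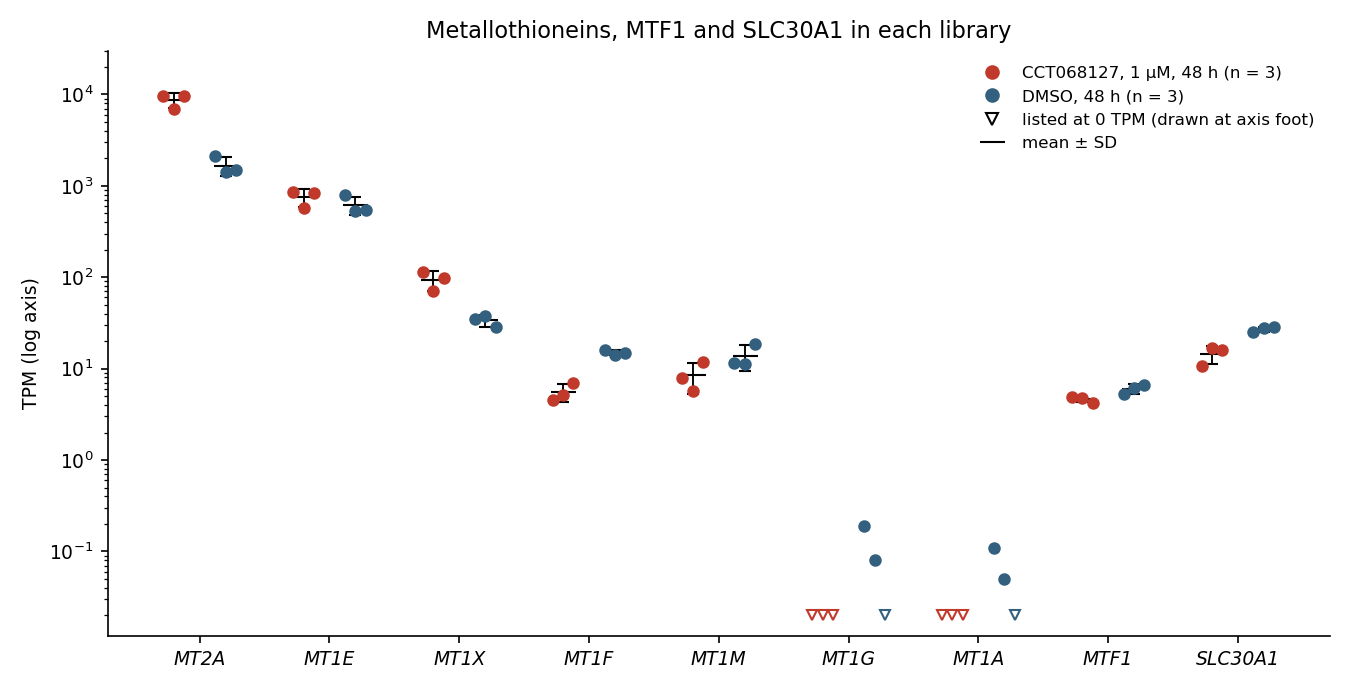
TPM of the 9 genes (log axis) in each library, CCT068127 in red and DMSO in blue, with the mean and SD (n = 3 each) where no library is at 0; triangles mark libraries listed at 0. MT2A and MT1X lie higher in all CCT068127 libraries, MT1F, MTF1 and SLC30A1 lie lower on this TPM scale, and MT1E and MT1M overlap.

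The makeup of the family shifted with its total. The summed TPM of the 7 metallothioneins was 10700, 7574 and 10560 in the CCT068127 libraries and 2952, 2012 and 2078 in the DMSO libraries, or 0.961% ± 0.177 of all TPM under CCT068127 and 0.235% ± 0.0525 under DMSO (SD, n = 3 each). MT2A made up 90.7%, 91.5% and 91.0% of that sum under CCT068127 and 71.4%, 70.5% and 70.9% under DMSO. MT1E made up 7.83% ± 0.328 under CCT068127 and 26.3% ± 0.182 under DMSO. The spread of these shares within a group was far smaller than that of the levels, since MT2A and MT1E varied together between replicates. The MT2A to MT1E ratio of TPM was 11.2, 12.3 and 11.5 under CCT068127 and 2.69, 2.68 and 2.71 under DMSO, while MT2A itself had a TPM coefficient of variation of 18.0% under CCT068127 and 22.9% under DMSO. The lowest treated library for MT2A, MT1E and MT1X alike was CCT068127 replicate 2, which was also the shallowest, and the highest DMSO library for MT2A and MT1E was DMSO replicate 1. The MT1 members summed to 993, 646 and 953 TPM under CCT068127 and to 846, 593 and 606 TPM under DMSO, so most of the added metallothionein TPM was MT2A.

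**Figure D3:**
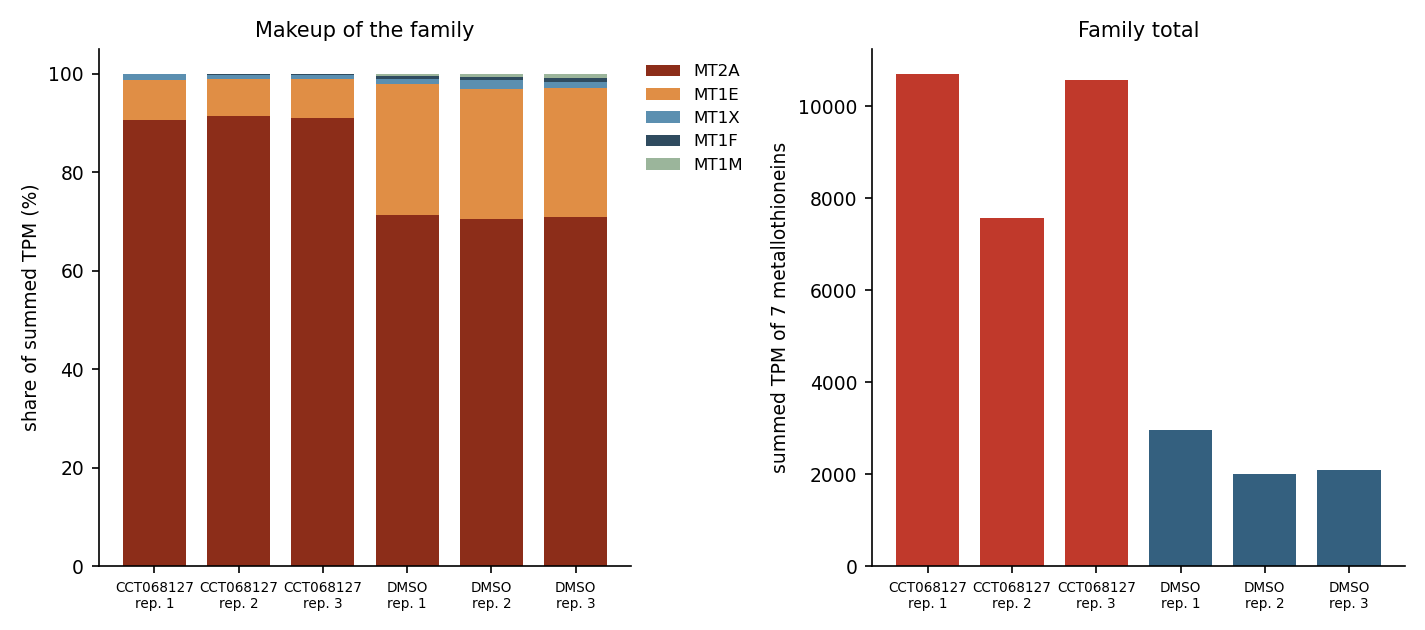
Left, share of each metallothionein in the summed TPM of the 7 family members (%), by library (MT1A and MT1G are too low to draw). Right, that summed TPM; the CCT068127 libraries hold 90.7% to 91.5% MT2A and 7574 to 10700 TPM, the DMSO libraries 70.5% to 71.4% and 2012 to 2952 TPM.

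Metallothionein transcripts are short and alike, and both bear on the values. Of the 50-base windows of GENCODE transcripts, 1.58% of those of MT2A, 7.1% of MT1E, 3.64% of MT1X, 1.22% of MT1F, 9.87% of MT1M, 5.76% of MT1A and 16.5% of MT1G were found in another metallothionein gene, so MT1G and MT1M shared the most sequence and MT1F and MT2A the least. MT1B, another member of the family at the locus, was too low to test. It had 11, 1 and 8 counts under CCT068127 and 362, 275 and 4 under DMSO, which was 1.22%, 0.49% and 1.11% of the MT1E count under CCT068127 and 0.768%, 0.773% and 0.76% under DMSO. By counts per TPM, which track transcript length, all 5 tested metallothioneins were among the shortest 0.397% of tested genes. In the 1359 shortest genes the median log2 fold change was 0.29, with 45.6% called higher, and it was -0.26 in the 1360 longest, with 23.2% called higher. The log2 fold change of MT2A was reached by 5.74% of the shortest genes and 6.03% of the longest. The part of length in these results was not tested.

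MTF1 itself, the factor that reads the metal signal, gave no call. It stood at 24.7, 24.6 and 22.2 CPM under CCT068127 and 19.5, 23.1 and 24.3 CPM under DMSO, with groups that overlapped. The log2 fold change was 0.11 ± 0.13, not called, and -0.07 against DMSO replicate 3 alone. In TPM the order was 4.86, 4.76 and 4.25 under CCT068127 against 5.22, 6.08 and 6.69 under DMSO, with no overlap, a log2(TPM + 1) difference of -0.31 that was not called either. Relative to the median of all genes the value was 0.16 with TMM, 0.16 with library totals and 0.15 on log2(TPM + 1) values. With TMM kept, it was -0.02 without DMSO replicate 1 and -0.01 with the deep DMSO libraries thinned. The sign in this gene thus changed with the scaling and with the DMSO libraries used, and no direction is given.

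SLC30A1 went against MT2A. It stood at 10.75, 16.87 and 16.03 TPM in the CCT068127 libraries and at 24.98, 27.63 and 28.39 TPM in the DMSO libraries. The groups did not overlap, and CCT068127 replicate 1 was the lowest. In CPM it averaged 57.2 ± 12.0 under CCT068127 and 75.9 ± 5.27 under DMSO (SD, n = 3 each). The SLC30A1 log2 fold change was -0.43 ± 0.15, -0.52 against DMSO replicate 3 alone, and -0.38, -0.38 and -0.41 relative to the median of all genes on the 3 scales. It was -0.74 with library totals, -0.87 on log2(TPM + 1) values and -0.28 without CCT068127 replicate 1, and the call was lost without DMSO replicate 2 (-0.42) or DMSO replicate 3 (-0.43).

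**Figure D4:**
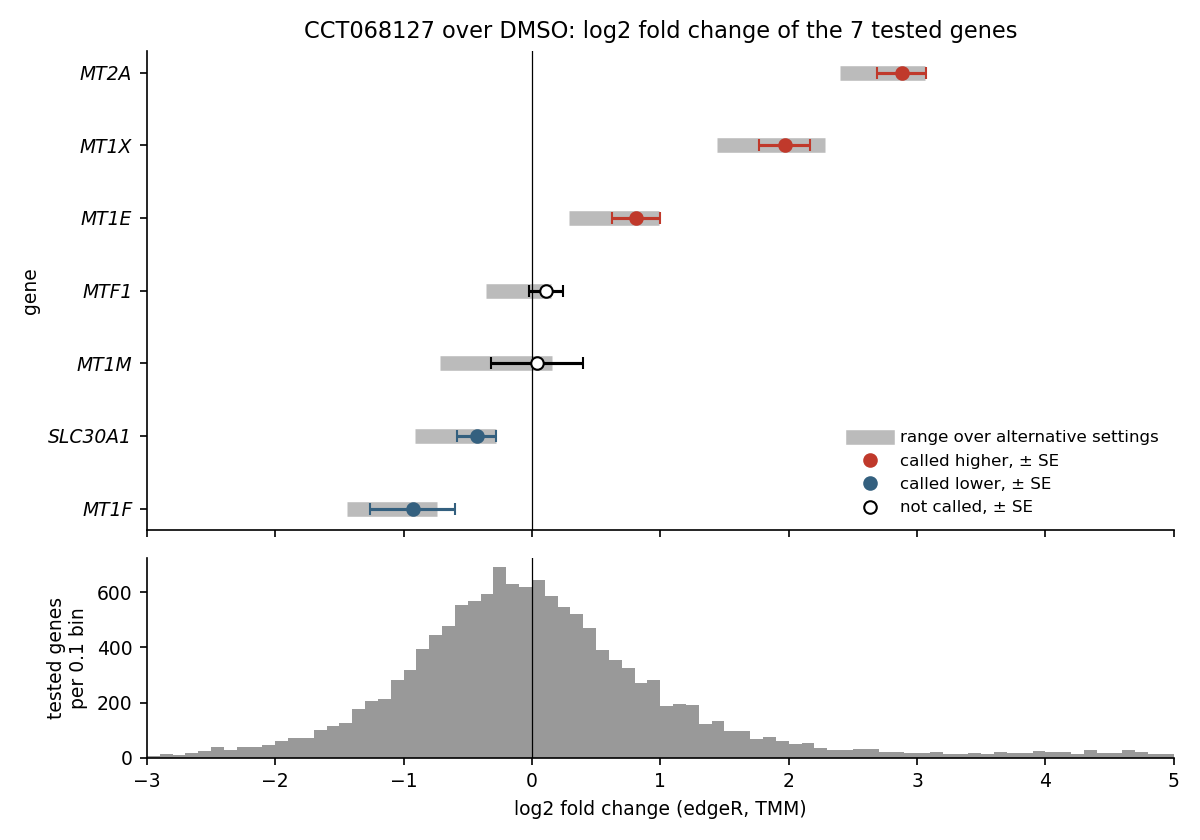
Top, log2 fold change (CCT068127 over DMSO) of the 7 tested members with SE, red for called higher, blue for called lower, open for not called; grey bars span the alternative settings, such as 2.4 to 3.06 for MT2A and -0.91 to -0.28 for SLC30A1. Bottom, number of tested genes per 0.1 bin of log2 fold change, with a median of -0.05.

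The other genes that move zinc had calls in both directions. Of 9 further SLC30 exporters 6 were tested, and 1 rose and 3 fell (median log2 fold change -0.44), beside 31.9% higher and 32.8% lower over all tested genes. SLC30A9, a mitochondrial zinc exporter, averaged 39.8 ± 8.67 CPM under CCT068127 and 66.5 ± 2.84 CPM under DMSO (-0.78 ± 0.15, edgeR adjusted p = 0.000803). SLC30A5, an exporter of the secretory pathway, fell by 0.51 on the log2 scale (edgeR adjusted p = 0.00188). SLC30A6, which works together with SLC30A5, fell by 0.61 (edgeR adjusted p = 0.00854), a call lost without CCT068127 replicate 3 (-0.52). SLC30A2, a vesicular zinc transporter, was the exception, at 3.67, 4.0 and 3.08 CPM under CCT068127 against 0.126, 0.157 and 0.299 CPM under DMSO (4.58 ± 0.33, edgeR adjusted p = 8.32e-07). SLC30A2 passed the filter on low counts only through the CCT068127 libraries, where it was higher, so its call only describes it. In DMSO replicate 3 its 0.299 CPM lay under the level of 3 counts (0.448 CPM). Against that library alone its log2 fold change was 3.41.

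Of 14 SLC39 importers, which bring zinc into the cytosol, 11 were tested, and 5 rose and 4 fell (median 0.10), again beside 31.9% and 32.8% of all tested genes. SLC39A1, an importer of the plasma membrane, averaged 311 ± 18.9 CPM under CCT068127 and 169 ± 0.0985 CPM under DMSO (0.88 ± 0.09, edgeR adjusted p = 1.28e-05). SLC39A6, another importer of the plasma membrane, rose by 0.92 on the log2 scale (edgeR adjusted p = 3.72e-05). SLC39A14, which also carries iron and manganese, fell by 0.78 on the log2 scale (edgeR adjusted p = 8.72e-05). SLC39A7, which releases zinc from the endoplasmic reticulum, rose by 0.42 (edgeR adjusted p = 0.00668). Its value was -0.06 on log2(TPM + 1) values, but relative to the median of all genes it was 0.47 with TMM and 0.40 on log2(TPM + 1) values. With library totals 2 importers were called higher, beside 3006 of all 13597 genes. On log2(TPM + 1) values 2 importers were called higher, beside 2474 of all 14394 genes tested there.

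Copper and iron genes had calls in both directions too. Of 15 tested copper genes 5 rose and 4 fell (median 0.14), close to the 31.9% higher and 32.8% lower of all tested genes, so the counts show nothing about copper genes as a list. ATOX1, the copper chaperone of the secretory pathway, averaged 54.3 ± 5.55 CPM under CCT068127 and 14.0 ± 0.827 CPM under DMSO (1.99 ± 0.12, edgeR adjusted p = 2.64e-07). SOD1, the copper and zinc superoxide dismutase, rose by 1.38 (edgeR adjusted p = 4.85e-07), and SCO1, a mitochondrial copper chaperone, by 0.71 (edgeR adjusted p = 9.26e-05; 0.20 and not called on log2(TPM + 1) values). CCS, the copper chaperone of SOD1, fell by 1.25 on the log2 scale (edgeR adjusted p = 3.87e-05). On log2(TPM + 1) values 2 copper genes were called higher and 8 lower, beside 2474 higher and 7472 lower of all 14394 genes tested there. Of 11 tested iron genes 5 rose and 5 fell (median 0.24), beside the same shares of all tested genes. TFRC, the transferrin receptor, averaged 428 ± 65.8 CPM under CCT068127 and 95.6 ± 11.9 CPM under DMSO (2.16 ± 0.14, edgeR adjusted p = 4.21e-07). FTL, the ferritin light chain, rose by 1.30 (edgeR adjusted p = 8.12e-07) and NCOA4, the receptor that takes ferritin to lysosomes, by 0.73 (edgeR adjusted p = 4.3e-05), and PCBP2, an RNA-binding protein that also acts as an iron chaperone, fell by 1.44 (edgeR adjusted p = 5.28e-07).

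Genes other than metallothioneins that cadmium and similar stress are known to induce moved mostly upward. Of 15 such genes 14 were tested, and 12 were called higher and 2 lower (median 0.85). The 2 called lower were SLC7A11, described below, and SQSTM1 (-0.59 ± 0.13, edgeR adjusted p = 0.00246). Over all tested genes 31.9% were higher and 32.8% lower, with a median of -0.05. HMOX1, heme oxygenase 1, stood at 438, 294 and 420 CPM under CCT068127 against 11.45, 10.32 and 10.9 CPM under DMSO (5.15 ± 0.17, edgeR adjusted p = 1.6e-08). BAG3, a co-chaperone of heat shock proteins, rose by 1.59 (edgeR adjusted p = 4.54e-07) and GCLM, the modifier subunit of the first enzyme of glutathione synthesis, by 1.61 (edgeR adjusted p = 1.58e-06). SLC7A11, the cystine importer, averaged 63.3 ± 13.6 CPM under CCT068127 and 146 ± 37.5 CPM under DMSO (-1.24 ± 0.20, edgeR adjusted p = 0.00047), but stood at 0.02 and was not called on log2(TPM + 1) values. Relative to the median of all genes it was -1.19 with TMM and 0.48 on log2(TPM + 1) values, so no direction is given for it. On log2(TPM + 1) values 6 of the list were called higher and 1 lower, beside 2474 higher and 7472 lower of all 14394 genes tested there. HSPA1A and HSPA1B, which count among the 12, are near-identical copies that can share reads.

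Glucocorticoid-induced genes, listed because glucocorticoids also raise MT2A, had calls in both directions. Of 13 tested, 4 rose, 4 fell and 5 did not pass (median 0.12), which is about the 31.9% higher and 32.8% lower of all tested genes, so the counts show nothing about the list. SGK1, a kinase of salt and stress signalling, averaged 145 ± 20.1 CPM under CCT068127 and 34.2 ± 4.69 CPM under DMSO (2.09 ± 0.14, edgeR adjusted p = 6.42e-07). DUSP1, a phosphatase of MAP kinases, rose by 1.97 (edgeR adjusted p = 4.36e-06), and KLF9, a zinc finger transcription factor, fell by 1.59 on the log2 scale (edgeR adjusted p = 2.81e-06). CRISPLD2 stood 2.47 higher (edgeR adjusted p = 7.21e-05), and 3.14 against DMSO replicate 3 alone. CRISPLD2 passed the filter on low counts only through the CCT068127 libraries, where it was higher, so its call only describes it.

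**Figure D5:**
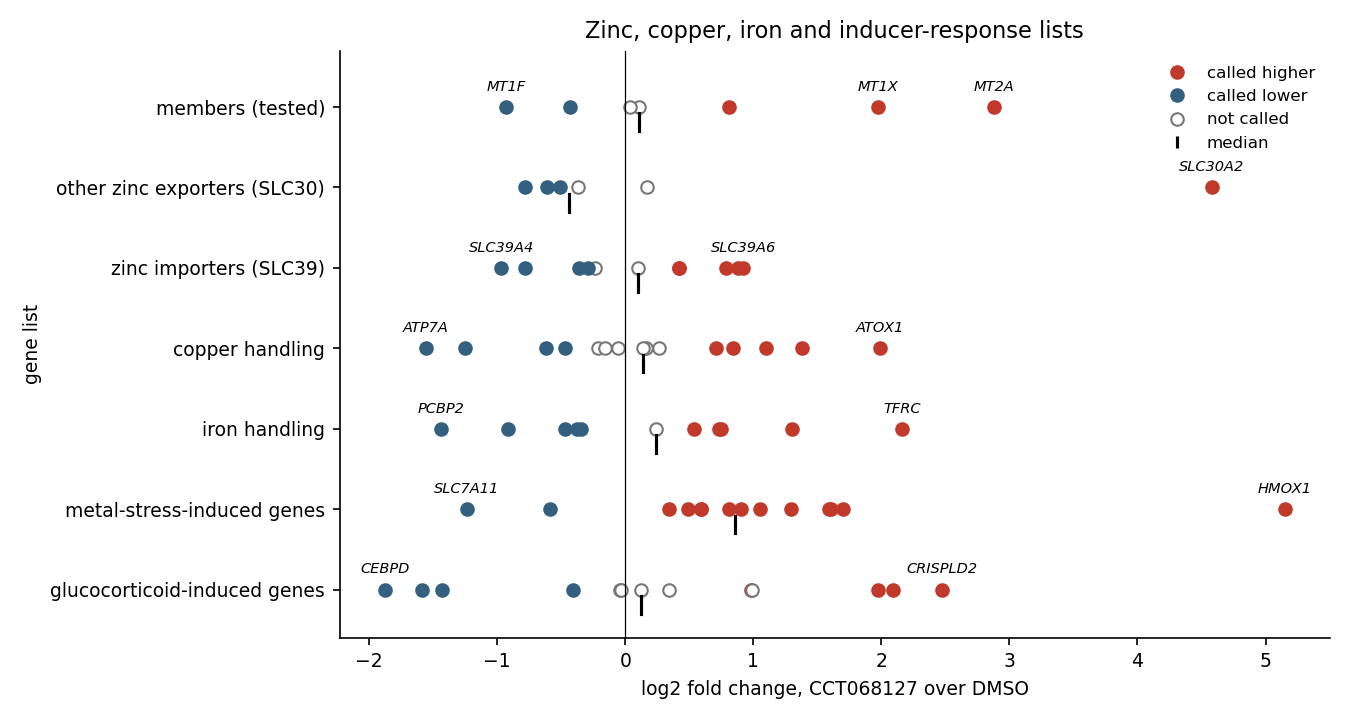
Log2 fold change (CCT068127 over DMSO) of every tested gene of the set and of 6 lists, one row each, red for called higher, blue for called lower and open for not called, with the median as a short line. The metal-stress list has 12 of 14 genes called higher, and the zinc, copper, iron and glucocorticoid lists have calls on both sides.

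The genes whose pattern was most like that of MT2A were PHLDA2, SFN, CKS1B, FEN1 and ULBP2. Likeness was the root mean square difference of log2 CPM, each gene centred on its mean over the 6 libraries, and it was 0.097, 0.118, 0.135, 0.157 and 0.163 for these 5 among 11333 genes that averaged 5 CPM or more. PHLDA2 stood at 445, 350 and 465 CPM under CCT068127 and 62.5, 50.7 and 49.1 CPM under DMSO. Like MT2A, it was lowest in CCT068127 replicate 2 among the treated libraries and highest in DMSO replicate 1 among the controls. PHLDA2 was picked for its likeness over these same 6 libraries, so this shared order is part of that choice. The 6 points are libraries that all these genes share, in 2 groups of 3.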

How the data were processed

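RNA-seq of T-24 cells was analysed in 3 CCT068127 and 3 DMSO libraries, grouped and numbered from the sample titles. Libraries were made from poly(A) RNA with a NEB Ultra II kit and run on a NovaSeq, per the labels' protocols. For each gene symbol the authors deposited whole-number estimated counts, and a second table the authors deposited gives TPM. The tools RSEM and Bowtie and the build hg38 come from the submitters' processing notes, which carry no versions. Annotation, strand setting and read length: not given in the sources used here. Antisense reads could therefore not be separated. RSEM shares reads among similar genes by estimation, which matters for metallothioneins.

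Tests used edgeR 4.0.16 (under R 4.3.3) on the estimated counts: filterByExpr (minimum count 10), TMM scaling, robust quasi-likelihood fit with treatment as the term, and Benjamini-Hochberg adjustment over 13597 genes, called at 0.05. SE were derived from the F statistic. The fit was tested on simulated data. Alternatives used DESeq2 1.42.0, limma 3.58.1 (voom, and trend on log2(TPM + 1) or log2(TPM + 0.1)), other scalings, no filter, thinning of the deep DMSO libraries, a replicate block and leaving out each library. Intervals and floors (3 counts) cover counting error only. No spike-in was named, so changes are relative to other genes.

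The members, lists and tests were chosen with earlier results of these data known. Named list genes are up to 3 called genes of a list's commoner direction and 1 of the other, by smallest adjusted p. Where the numbers were equal, as in the iron and glucocorticoid lists, higher was taken as the commoner direction. HSPA1A, HSPA1B and SQSTM1 are named in addition. Named neighbours of MT2A are the 5 closest. Sequences are from RefSeq (GRCh38.p14) and gene positions from GENCODE 29. Protein sequences were not used here. No pair of libraries within a group agreed within sampling noise (chi-square per degree of freedom 1.93 to 189). That value grows with the depth of a pair, and it cannot tell repeat libraries of a sample from independent samples. Each library counted as 1 replicate because the series text calls the samples independent.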

Additional observations from a re-analysis of the deposited data

How the results depend on the processing

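MT2A and MT1X kept their direction and call in all 17 alternatives with a test, with log2 fold changes of 2.4 to 3.06 and 1.44 to 2.08. MT1E was called in 14 of 17, SLC30A1 in 15 of 17 and MT1F in 11 of 16, all with 1 sign, and MT1M and MTF1 in none. Leaving out single libraries gave 2.75 to 3.06 for MT2A, 0.65 to 0.99 for MT1E, 1.75 to 2.08 for MT1X, -1.23 to -0.74 for MT1F and -0.55 to -0.28 for SLC30A1. The number of members higher was 3 in each fit that left out 1 library and 2 in the 3 TPM fits, and the number lower was 0 to 2 when 1 library was left out. The replicate numbers did not pair the samples (correlations of same-numbered deviations 0.0047 to 0.01), and the replicate block gave 1 member lower, MT1F losing its call, with 4107 genes higher and 4190 lower in all. The number lower was also 1 with DESeq2 and with the deep DMSO libraries thinned, where MT1F and MT1M no longer passed the filter.

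Over all genes 4333 were higher and 4460 lower; library totals gave 3006 and 6567, log2(TPM + 1) gave 2474 and 7472, log2(TPM + 0.1) gave 2444 and 7299, and log2(TPM + 1) without a filter gave 3039 and 7365. Further SLC30 exporters higher were 3 with no low-count filter and 2 on log2(TPM + 1) without a filter. SLC39 importers higher were 2 with library totals and in all 3 TPM fits. Copper genes were 2 higher and 8 lower on log2(TPM + 1) and on log2(TPM + 0.1), and 3 higher and 7 lower without a filter. Iron genes higher were 3 on log2(TPM + 1) without a filter. Metal-stress genes were 6 higher and 1 lower in all 3 TPM fits. Leaving out single libraries gave 0 to 1 other metallothioneins higher, 3 to 5 importers higher and 2 to 5 lower, and 3 to 6 iron genes lower. SLC39A7 was at -0.06 and SLC7A11 at 0.02 in the 3 TPM fits, against their signs in CPM. Relative to the median of all genes SLC39A7 kept its sign on log2(TPM + 1) values (0.40) and SLC7A11 did not (0.48, against -1.19 with TMM). For all these changes the cause was not tested. With all metallothionein genes as the denominator the MT2A share was 91.0% under CCT068127 and 70.8% under DMSO. Depth limits MT1A, MT1G, MT1F and MT1M, at 0 to 10 counts in each treated library.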

Other observations

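Within DMSO, replicate 1 was the highest library for MT2A (307 CPM, against 211 and 214 in replicates 2 and 3) and for MT1E (114, against 78.9 and 78.5). It was also the highest for GCLM (34.2, against 26.6 and 28.4 CPM), SLC7A11 (189, against 121.5 and 126.8 CPM) and DUSP1 (297, against 187 and 206.5 CPM), while SLC30A1 was lowest there (69.8, against 78.7 and 79.1 CPM) and MT1X was not set apart (5.12, against 5.67 and 4.03 CPM). These genes were chosen after their values were seen.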
